A study of Mus musculus with 96 samples.

Results

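The Hox genes of 4 mouse organs were described here: every gene of the Hoxa, Hoxb, Hoxc and Hoxd clusters that the count table holds, found by its Ensembl identifier and its GENCODE M21 symbol. The rule gave 39 genes among 54833 features. The table covers 96 total RNA libraries of kidney, liver, cerebellum and forebrain from male wild-type C57BL/6 mice aged 6 to 8 weeks, with no transgene or allele in any group. Mice of the control group (CON) slept freely, whereas those of the sleep-deprived group (SD) spent 10 h in a drum that turned slowly, where food and water were at hand. Per the study, deprivation fell in the normal resting phase, and organs were taken afterwards in constant darkness. Each organ and condition was sampled at the 6 circadian times (CT) that followed, from CT4 to CT24 every 4 h. There were 2 libraries at each time, so that 12 CON and 12 SD libraries stand for each organ. The methods call the libraries of 1 time biological repeats. The labels do not tie libraries to animals. The questions were which paralog groups each adult organ expresses, and whether their levels hold over circadian time and under sleep deprivation.

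Hox genes encode homeodomain transcription factors that give cells their position along the head-to-tail axis of the embryo. They lie in 4 clusters that arose by duplication, and genes at the same place in different clusters form a paralog group, numbered from the anterior end. Within a cluster, low-numbered genes are switched on earlier and further toward the head than high-numbered genes. The forebrain forms ahead of the anterior limit of Hox expression, the cerebellum forms from the most anterior hindbrain segment, and the kidney forms in the trunk from intermediate mesoderm. Hox proteins bind DNA with partners of the TALE family (PBX, MEIS and PKNOX proteins), and Polycomb and trithorax complexes keep the clusters silent or active in adult cells.

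On GRCm38 the Hoxa cluster lies on the minus strand at chr6:52155590-52260880 with 11 members. The others lie on the plus strand: Hoxb at chr11:96194316-96368256 with 10 members, Hoxc at chr15:102921103-103036852 with 9, and Hoxd at chr2:74668310-74765142 with 9. Counts were present for 27 members. The other 12 (among them Hoxa2, Hoxa6, Hoxb1, Hoxb4, Hoxb5, Hoxb9, Hoxb13, Hoxc5, Hoxc12, Hoxd10 and Hoxd11) were listed at 0 in all 96 libraries. So were 2583 of 21734 protein-coding genes (11.9%), among them the actin regulator Cfl1, the ribosomal protein gene Rpl35a and the respiratory chain gene Cox8a, which nearly every cell uses. A listing at 0 in every library was therefore not read as absence. Sums over a cluster or a paralog group leave these 12 genes out of account. Hoxb5os and Gm28309, transcripts that overlap Hoxb5 and the pair Hoxd10 and Hoxd11, did have counts in kidney (21.1 ± 1.63 and 4.171 ± 0.647 CPM, counts scaled to the library total; SD, n = 12).

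Some members share exon sequence with a neighbour, and their counts are less certain. Hoxd3 shares 62.3% of its exon length with Hoxd4 and another transcript on the same strand, and Hoxd4 shares 52.3%. Hoxb3 has 52.9% of its exon length covered by Hoxb3os on the opposite strand, and Hoxa11 has 35.0% covered by Hoxa11os. Reads were counted by strand, which in principle tells opposite-strand pairs apart, while reads in exons shared on 1 strand could not be given to 1 gene. In cerebellum CON CT8 replicate 1, genes annotated as antisense held 3.596% of counts, against 0.831 to 0.979% in the other cerebellum libraries. This library was kept, and whether its strands were kept apart was not tested.

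Upstream sequence is shown for 3 members on which the organ comparison turns: Hoxd8, the member with the highest kidney level; Hoxa10, the steadiest member across kidney libraries; and Hoxd1, the member with a higher level in cerebellum than in kidney. The 250 bases before a RefSeq transcript start (GRCm38.p6) are printed 5′ to 3′ on the gene's strand. For Hoxd8 they are chr2:74704365-74704614 on the plus strand. For Hoxa10 they are chr6:52234940-52235189 on the minus strand, inside the gene and before its downstream transcript start. For Hoxd1 they are chr2:74762730-74762979 on the plus strand. Capitals mark TATAAA, read here from the opposite strand, in Hoxa10 and the E-box CACGTG in Hoxd1.
Hoxd8: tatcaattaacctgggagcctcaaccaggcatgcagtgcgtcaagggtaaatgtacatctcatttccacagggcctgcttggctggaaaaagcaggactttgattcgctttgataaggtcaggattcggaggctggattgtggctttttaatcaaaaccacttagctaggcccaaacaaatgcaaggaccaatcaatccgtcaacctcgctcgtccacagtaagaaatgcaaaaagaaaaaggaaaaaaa
Hoxa10: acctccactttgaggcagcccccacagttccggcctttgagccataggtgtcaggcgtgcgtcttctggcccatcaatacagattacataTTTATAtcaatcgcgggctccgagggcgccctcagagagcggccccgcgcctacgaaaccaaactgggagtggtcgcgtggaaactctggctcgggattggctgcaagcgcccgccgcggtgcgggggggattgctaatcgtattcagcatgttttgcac
Hoxd1: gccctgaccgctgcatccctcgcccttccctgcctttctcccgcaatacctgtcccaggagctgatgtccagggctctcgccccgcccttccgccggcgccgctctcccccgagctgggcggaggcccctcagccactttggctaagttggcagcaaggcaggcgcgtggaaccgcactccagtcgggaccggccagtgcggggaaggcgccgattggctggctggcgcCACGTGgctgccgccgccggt

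RefSeq held 24 such windows for 22 of the 39 members. They had a median ratio of observed to expected CpG dinucleotides of 0.721, against 0.373 over all 32851 RefSeq windows, so CpG was less depleted upstream of Hox genes. Each motif was searched on both strands. CACGTG, the sequence that circadian clock factors bind, was found in 4 of the 24 windows (16.7%) and in 6.02% of all windows. TATAAA was found in 4 (16.7%, against 12.4%), the homeodomain sequence TAATTA in 2 (8.33%, against 4.84%) and the HOX-PBX sequence TGATTNAT in 2 (8.33%, against 2.82%). The Hoxd8 window held none of these 4 sequences. A match is a match of letters and not a measured binding site.

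The libraries held 24.8 to 58.5 M counted read pairs each, with 24.8 to 30.9 M in cerebellum and 29.0 to 58.5 M in the other organs. Markers of the labelled organs stood where the labels put them. The summed median level of 6 proximal tubule markers was 4.57e+04 TPM (counts scaled by exon length and library total) in control kidney and 2.54 TPM in control liver, that of 5 hepatocyte markers was 9.96e+04 TPM in liver and 717 TPM in kidney, and that of 5 cerebellum markers was 3.87e+03 TPM in cerebellum and 36.2 TPM in forebrain. The summed level of 5 forebrain markers was 170 to 738 TPM in control forebrain libraries and at most 130 TPM in those of the other organs. The labels of 20 of the 24 kidney libraries conflict, with another condition or time in the characteristics than in the title. The characteristics list 22 CON and 2 SD kidney libraries. Titles, which give 12 and 12, were used here, and every kidney value by condition or time depends on that choice. The characteristics were tried as an alternative.

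Kidney was the organ with Hox expression, and the other organs held traces of it. The summed Hox level in the 12 control kidney libraries was 445.1 CPM at its lowest, 481.5 CPM at the median and 530.6 CPM at its highest. Control liver ran from 2.764 through 4.151 to 7.117 CPM. Control cerebellum ran from 0.2311 through 0.3809 to 4.169 CPM, and control forebrain from 0.05698 through 0.1385 to 0.2763 CPM. Kidney did not overlap any other organ, liver lay above forebrain without overlap, and liver overlapped cerebellum through 1 cerebellum library. The means were 478 ± 23.7 CPM in kidney, 4.502 ± 1.11 in liver, 0.7117 ± 1.1 in cerebellum and 0.1478 ± 0.0705 in forebrain (SD, n = 12 each). In bulk tissue, fewer cells that express a gene and less RNA per cell cannot be told apart.

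By their mean over control libraries, 18 of the 39 members reached 1 CPM in kidney, 4 lay from 0.1 to 1 CPM, 5 lay below 0.1 CPM and 12 were at 0. In liver 2 members reached 1 CPM and 3 lay from 0.1 to 1 CPM. In cerebellum 3 lay from 0.1 to 1 CPM and none reached 1 CPM, and in forebrain all 9 members with counts lay below 0.1 CPM. The sum of 59 Hox read pairs over the 12 control forebrain libraries, against 226436 in kidney, is near the limit of what this depth can show.

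**Figure D1:**
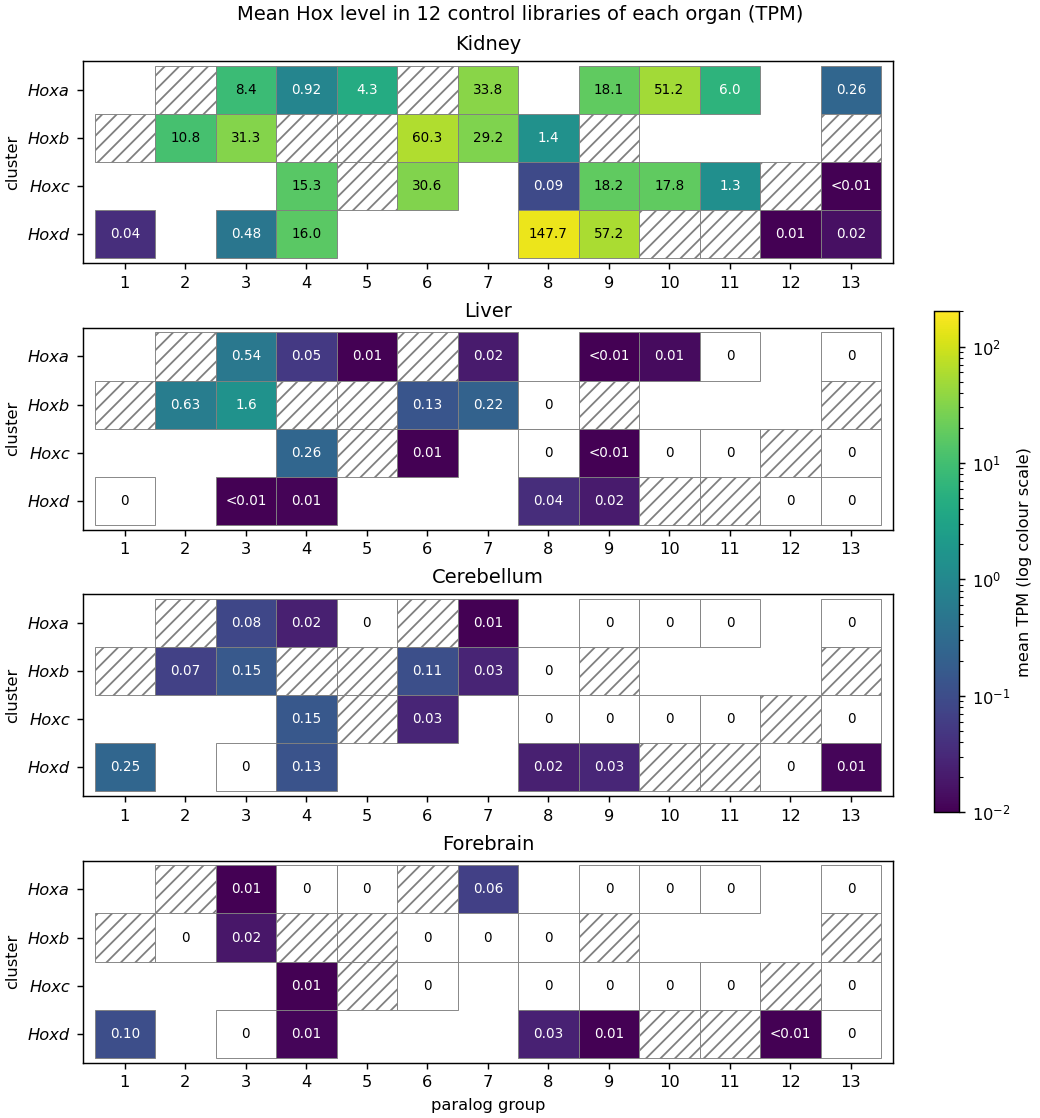
Mean level in TPM (colour on a log scale, value printed) of each Hox member in the 12 control libraries of kidney, liver, cerebellum and forebrain, by cluster (rows) and paralog group (columns); hatched cells were listed at 0 in all 96 libraries, and blank cells have no gene or are not shown. Kidney cells are bright from paralog group 2 to group 10, liver cells are brightest in groups 2 to 4, and Hoxd1 is brighter in cerebellum and forebrain than in kidney.

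The place of the members along the clusters differed between organs. In control kidney, paralog groups 1 to 4 held 20 ± 1.76% of Hox counts, groups 5 to 8 held 48.6 ± 1.31% and groups 9 to 13 held 31.4 ± 1.09% (SD, n = 12). In control liver, groups 1 to 4 held 93.6 ± 3.85%, groups 5 to 8 held 5.65 ± 2.89% and groups 9 to 13 held 0.753 ± 1.67%. The lowest liver library had 85.2% of its Hox counts in groups 1 to 4 and the highest kidney library had 22.8%, so the organs did not overlap. In control cerebellum, groups 1 to 4 held 84% of 238 pooled Hox counts (95% Wilson interval 78.8 to 88.1%). In control forebrain they held 55.9% of 59 pooled counts (43.3 to 67.8%). These intervals cover counting error only.

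Kidney expressed the 4 clusters at levels within the same order of magnitude. Summed over members, Hoxd gave 221.5 ± 13.1 TPM, which was 39.6% of all Hox TPM, Hoxb gave 133.1 ± 13.8 TPM (23.7%), Hoxa gave 122.9 ± 5.94 TPM (22%) and Hoxc gave 83.34 ± 14.6 TPM (14.8%). By paralog group, group 8 was highest at 149.3 ± 10.7 TPM (26.7%), nearly all of it Hoxd8. Groups 9, 6, 10 and 7 followed at 93.45, 90.94, 68.99 and 63.02 TPM. Groups 3 and 4 stood at 40.19 and 32.23 TPM, group 2 at 10.79 TPM, group 11 at 7.352 TPM and group 5 at 4.28 TPM. Groups 13, 1 and 12 were below 1 TPM, at 0.2754, 0.03688 and 0.00557 TPM. By members with counts, groups 2 to 11 were therefore those above 1 TPM in adult kidney. Members listed at 0 are missing from these sums. By cluster they are 3 of 11 in Hoxa, 5 of 10 in Hoxb, and 2 of 9 in Hoxc and in Hoxd. By paralog group they are 2 of 3 in groups 1 and 5, and 1 of 2 in groups 2 and 12. Groups 6, 10 and 11 lack 1 of 3 members, and groups 4, 9 and 13 lack 1 of 4. The ends of the expressed span could thus not be fixed.

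Among single members, Hoxd8 was the highest in kidney, with 129.2 TPM in its lowest control library, 151.9 TPM at the median and 159.8 TPM in its highest. No control library of the next member, Hoxb6, reached that range (50.27, 60.77 and 76.66 TPM). For comparison, the median protein-coding gene with counts stood at 9.37 TPM in control kidney. Hoxd9 followed with a mean of 57.17 ± 3.89 TPM and Hoxa10 with 51.16 ± 2.38 TPM. Hoxa7 (33.78 ± 2.05 TPM), Hoxb3 (31.31 ± 5.18), Hoxc6 (30.64 ± 7.11) and Hoxb7 (29.24 ± 3.37) formed a group whose ranges overlapped. The promoter of Hoxb7 is widely used to drive transgenes in the ureteric bud and the collecting duct that forms from it.

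Hoxc9 (18.16 ± 2.44 TPM), Hoxa9 (18.12 ± 1.09), Hoxc10 (17.83 ± 1.58), Hoxd4 (16.01 ± 2.88) and Hoxc4 (15.29 ± 4.77) came next with overlapping ranges. Hoxb2 stood at 10.79 ± 1.07 TPM, Hoxa3 at 8.402 ± 1.36 and Hoxa11, whose paralog group is needed for the kidney to form, at 6.021 ± 1.18. Hoxa5 stood at 4.28 ± 0.935 TPM, Hoxb8 at 1.427 ± 0.317 and Hoxc11 at 1.331 ± 0.38. Hoxa4, Hoxd3 and Hoxa13 had means of 0.9187, 0.4795 and 0.2569 TPM, and Hoxc8 had 1 to 6 counts in each control library. Hoxd1, Hoxd13, Hoxd12 and Hoxc13 had 10, 5, 3 and 1 counts over the 12 control libraries. Down this order, neighbours had ranges that did not overlap at 4 steps: Hoxd8 above Hoxb6, Hoxa10 above Hoxa7, Hoxb7 above Hoxc9 and Hoxa5 above Hoxb8.

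**Figure D2:**
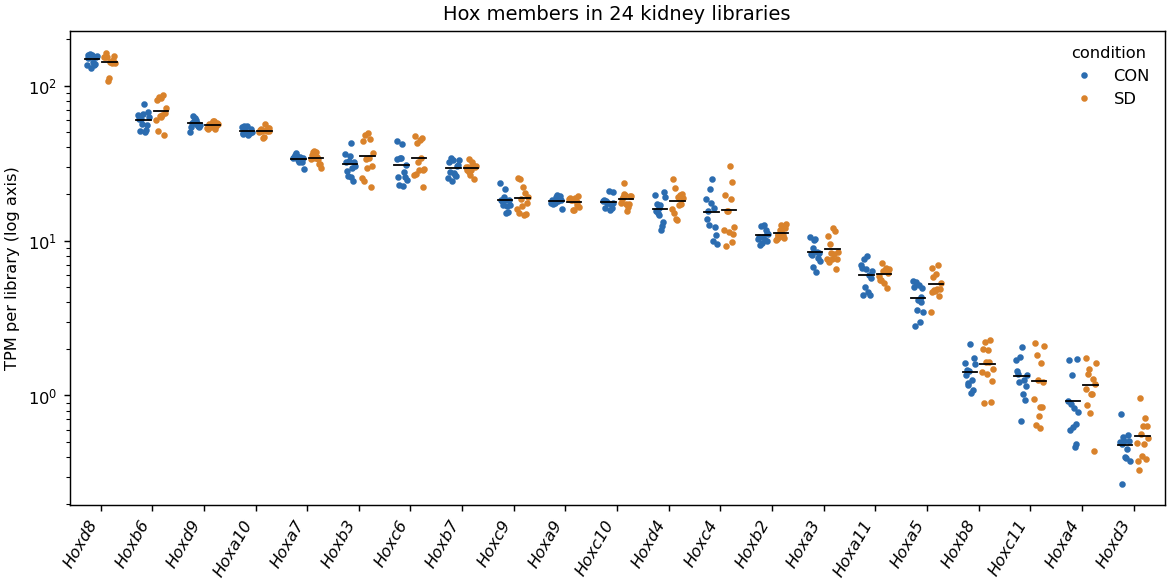
Level in TPM (log axis) of 21 Hox members in each of the 24 kidney libraries, in order of their mean over control libraries; points are libraries (CON blue, SD orange) and black bars are means of 12. The CON and SD points of every member overlap, Hoxd8 stands alone at the top, and the spread of Hoxa10 is narrow beside those of Hoxb3, Hoxc6 and Hoxc4. Hoxa13, with 0 counts in 12 libraries, is not drawn.

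Kidney levels differed in steadiness from member to member. Hoxa10, which patterns the limb, spine and reproductive tract, had a coefficient of variation of CPM of 3.65% over the 12 control libraries, against 2.21% from counting error, and 1.64% of 16726 kidney genes with a mean of at least 1 TPM varied less. Hoxc4, a gene of the cervical region, varied by 29.9%, from 7.865 to 19.14 CPM, and 88.6% of kidney genes varied less. The median over the 19 members with at least 1 TPM was 12.6%, beside 12% over all those genes. In SD libraries the medians were 15.7% and 12.4%. As a set, the members were about as variable as other kidney genes.

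Several members moved together from library to library. Over the 24 kidney libraries, the log2 TPM of Hoxb3 correlated with that of Hoxb6 (r = 0.91), Hoxc6 (0.91), Hoxb8 (0.89), Hoxa3 (0.88) and Hoxc9 (0.86), with Hoxc4 at 0.77, Hoxd4 at 0.6, Hoxa4 at 0.54 and Hoxc11 at 0.49. Among members with a mean of at least 1 TPM over these libraries, Hoxa4 and Hoxc11 had the highest coefficients of variation (40.1% and 36.8% of TPM). Among 17809 other kidney genes the median r with Hoxb3 was 0.21, and 1.85% reached 0.8, as 5 of 19 Hox members did. Hoxa7 (0.2), Hoxb7 (0.15), Hoxa9 (0.052), Hoxd8 (-0.044) and Hoxd9 (-0.084) did not follow Hoxb3, and Hoxb7 and Hoxb3 lie in the same cluster. The members that reached 0.8 with Hoxb3 came from 3 clusters and from paralog groups 3, 6, 8 and 9. Hoxb3 was highest in the SD CT16 replicate 1, SD CT8 replicate 2 and SD CT20 replicate 1 libraries (49.2, 48.2 and 44.9 TPM) and lowest in SD CT20 replicate 2 (22 TPM), so replicates of 1 time stood at both ends. These correlations describe 24 libraries that share tissue and scaling. The share of long noncoding RNA in the counts, 4.94 to 7.19%, correlated with Hoxb3 at r = 0.27. The part of dissection and RNA quality in this pattern was not tested.

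Hoxa13, a gene of the hindgut and lower urogenital tract, was present in some kidney libraries and had no count in others. It had counts in 12 of 24 libraries, with 95 counts in 7 CON libraries and 29 in 5 SD libraries, and up to 24 in 1 library (CON CT24 replicate 2). The summed level of 6 urothelium markers ran from 14.3 to 120 TPM in the 12 libraries with Hoxa13 counts, with a median of 63.8 TPM, and from 6.14 to 227 TPM in the 12 without, with a median of 14.4 TPM. Of the 12 without, 1 (SD CT24 replicate 1, at 227 TPM) lay above the median of the other 12, so urothelium marker levels were mostly higher where Hoxa13 had counts. Whether the amount of renal pelvis in a sample set the Hoxa13 count was not tested.

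The highest members in liver were of paralog groups 2 and 3. Hoxb3 was the highest with 0.873, 1.471 and 2.734 TPM (lowest, median and highest of 12 control libraries). Hoxb2 followed with 0.4245, 0.6326 and 0.865 TPM, and Hoxa3, which is needed to form the thymus and parathyroid, with 0.3385, 0.5347 and 0.7768 TPM. All 3 had counts in every liver library, and their ranges lay wholly below those of kidney. Hoxc4 (0.2576 ± 0.203 TPM) and Hoxb7 (0.2154 ± 0.125 TPM) were lower, and Hoxb6 had counts in 8 of 12 control libraries. Levels in liver as a share of kidney were highest in groups 2 and 3 and below 1% from group 4 on: 5.83% in group 2, 5.25% in group 3, 0.993% in group 4, 0.141% in group 5, 0.159% in group 6, 0.375% in group 7, 0.0238% in group 8, 0.0279% in group 9 and 0.0195% in group 10. Groups 1 and 11 to 13 had no count in control liver.

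The pooled counts gave the size of the kidney-to-liver difference for each member. Hoxb3 was 19.1-fold higher in kidney (95% interval of counting error 17.9 to 20.5), Hoxb2 16.4-fold (14.6 to 18.4) and Hoxa3 14.7-fold (13.4 to 16.2). Hoxc4 was 57.6-fold higher (46.8 to 71.6) and Hoxb7 130-fold (97.9 to 178). Hoxb6 was 419-fold higher (305 to 593), Hoxa10 3761-fold (1728 to 10249) and Hoxd8 4208-fold (2460 to 7903). Some of these folds turned on 1 liver library. Without the CON CT24 replicate 2 library, which held 18 of its 38 counts, Hoxb6 was 725-fold higher (469 to 1187). Without the CON CT8 replicate 2 library, Hoxd8, with 5 counts left, was 10104-fold higher (4329 to 31118), and Hoxa10, with no count left, at least 6946-fold. These values were added after seeing the data. Hoxc10 and Hoxa11 had no count in control liver and were at least 1529-fold and at least 621-fold higher in kidney, against a floor of 3 counts over the 12 liver libraries. The posterior counts of liver lay mostly in a few libraries. Of groups 8 to 13, CON CT8 replicate 2 had 18 counts (Hoxd8 8, Hoxa10 6, Hoxd9 4) and SD CT24 replicate 2 had 11, while the other 22 liver libraries had 0 to 4. Proximal tubule markers summed to 3.08 and 2.28 TPM in those 2 libraries, inside the range of all liver libraries (1.61 to 6.24 TPM).

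The kidney-to-liver difference was also taken at each circadian time. Tested at each of the 6 times (edgeR quasi-likelihood, 2 control libraries of each organ per time, Benjamini-Hochberg adjustment over all genes), Hoxb3 was higher in kidney by 3.24 to 4.04 on the log2 scale, with adjusted p from 1.42e-10 to 1.3e-09 and SE from 0.237 to 0.254. Hoxa3 was higher by 3.05 to 3.96 and Hoxb2 by 3.38 to 3.57, both past the threshold at each of the 6 times. Members with few liver counts spread more. Hoxb7, with 2 to 12 liver counts at a time, ran from 5.70 to 8.33 and Hoxb6, with 1 to 22, from 6.75 to 10.54. Hoxd8 had no liver count at 2 times, where its fitted difference depends on the prior count. Whether the difference between organs changed with time was not tested. A call here needed an adjusted p under 0.05 and a log2 difference over 1, which 23% of all 22057 genes met in the direction of kidney at CT4 and 21.2 to 23.4% at the other times. The 22 members that passed the filter on low counts passed it through their kidney level, so their calls carry no weight as a count. The members that missed a call were Hoxa13 at each time and Hoxa4, at 1.09 (SE 0.734, adjusted p = 0.218), at CT8.

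Between the 3 organs with traces, the share of members called higher in liver, or in cerebellum against forebrain, was near that of all genes. The share called lower was far below it. The 22 members passed the filter through their kidney level, and some, such as Hoxa11, had no count in these 3 organs. Their shares are therefore not comparable with those of all genes. In the fit over 48 control libraries with time as a factor, 8 of 22 members were higher in liver than in cerebellum (Hoxa3, Hoxa4, Hoxa7, Hoxa10, Hoxb2, Hoxb3, Hoxb7 and Hoxc4) and 1, Hoxd4, was lower. Of all 26536 genes 38.8% were higher and 49% lower. Hoxb3 differed by 4.60 on the log2 scale (SE 0.356, adjusted p = 3.13e-16), Hoxb2 by 4.40 (SE 0.384, adjusted p = 9.14e-13), Hoxa3 by 3.95 (SE 0.342, adjusted p = 1.45e-14) and Hoxb7 by 3.78 (SE 0.515, adjusted p = 3.1e-08). Hoxa10 rested on 6 counts in 1 liver library, CON CT8 replicate 2, and lost its call with Hoxa4 when that library was left out (6 members higher). Against forebrain, 9 members were higher in liver and 0 lower (38.2% and 47.7% of all genes): Hoxa3, Hoxa4, Hoxa10, Hoxb2, Hoxb3, Hoxb6, Hoxb7, Hoxc4 and Hoxc6. Of these, Hoxc6 rested on 3 counts in 2 control liver libraries, and Hoxa10 on the same 6 counts in 1 library. Hoxb2 had 313 counts in control liver and 0 in control forebrain, Hoxb7 had 47 and 0, and Hoxb3 had 935 and 7.

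Cerebellum stood above forebrain for 7 of 22 members (Hoxa3, Hoxb2, Hoxb3, Hoxb6, Hoxc4, Hoxc6 and Hoxd4) and below it for Hoxa7, where 31.5% of all genes were higher and 38.8% lower. Hoxa3 differed by 3.17 (SE 0.729, adjusted p = 0.000164), Hoxc4 by 3.18 (SE 0.832, adjusted p = 0.000754), Hoxd4 by 2.72 (SE 0.774, adjusted p = 0.00181) and Hoxb3 by 2.63 (SE 0.765, adjusted p = 0.00229). Hoxc6 had only 5 counts in 2 CON libraries of cerebellum and 3 counts in 2 SD libraries. All 16 control counts of Hoxb6 came from 1 cerebellum library, CON CT20 replicate 1. Without that library Hoxb3 and Hoxb6 lost their calls (Hoxb3 1.15, adjusted p = 0.0969) and 5 members stayed higher in cerebellum. Without it Hoxd4 was also no longer lower in liver than in cerebellum, and 9 members were higher in liver. In the SD libraries 7 members were again higher in cerebellum (32.6% of all genes were, and 40.3% lower), of which 5 (Hoxa3, Hoxb2, Hoxb3, Hoxc4 and Hoxc6) were among the 7 of control libraries, and Hoxa7 was not called.

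The cerebellum signal was concentrated in 2 of 24 libraries. The SD CT4 replicate 2 library had 154 Hox counts (4.977 CPM) and the CON CT20 replicate 1 library had 117 (4.169 CPM), while the other 22 had 4 to 21. In these 2 libraries Hoxb3 had 38 and 34 counts, Hoxd4 34 and 18, Hoxa3 28 and 19, Hoxc4 22 and 14, and Hoxb2 12 and 10, and no other library had more than 7 counts of any of them. Hoxb2, Hoxb3, Hoxa3 and the group 4 members are among the Hox genes of the hindbrain behind the cerebellum. Hoxb6, of a more posterior group, had 16 counts in CON CT20 replicate 1, 1 in SD CT4 replicate 2 and 0 in the other 22 libraries. Without these 2 libraries, a step chosen after seeing the data, the summed level was 0.397 ± 0.155 CPM in CON and 0.315 ± 0.185 CPM in SD (SD, n = 11 each), beside 0.7117 ± 1.1 and 0.7035 ± 1.36 with them. Both ranges still lay below that of liver.

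The same 2 libraries had the highest summed level of 9 brainstem markers, 48.95 and 39.47 TPM, where the other 22 ran from 20.14 to 35.87 TPM with a median of 23.7. The glycine transporter gene Slc6a5 carried most of this, at 32.8 and 33 TPM against a highest value of 22.9 TPM elsewhere. This gene had at least 8.56 TPM in all of the other 22. Chat, Dbh, Slc6a2 and Slc18a3 were highest of all in SD CT4 replicate 2. Tph2 was higher in 3 of the other 22 libraries than in SD CT4 replicate 2, Phox2a in 4 and Slc6a4 in 8. In CON CT20 replicate 1 no marker of the list but Slc6a5 stood above the other 22, and Tph2 was higher in 20 of them. Choroid plexus markers summed to 5303 and 4565 TPM, inside the range of the others (9.096 to 1.098e+04 TPM). Cerebellum markers summed to 2759 TPM in SD CT4 replicate 2, below all of the other 22 (2961 to 4350 TPM), and to 3581 TPM in CON CT20 replicate 1. The part of adjoining brainstem in the Hox counts was not tested.

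**Figure D3:**
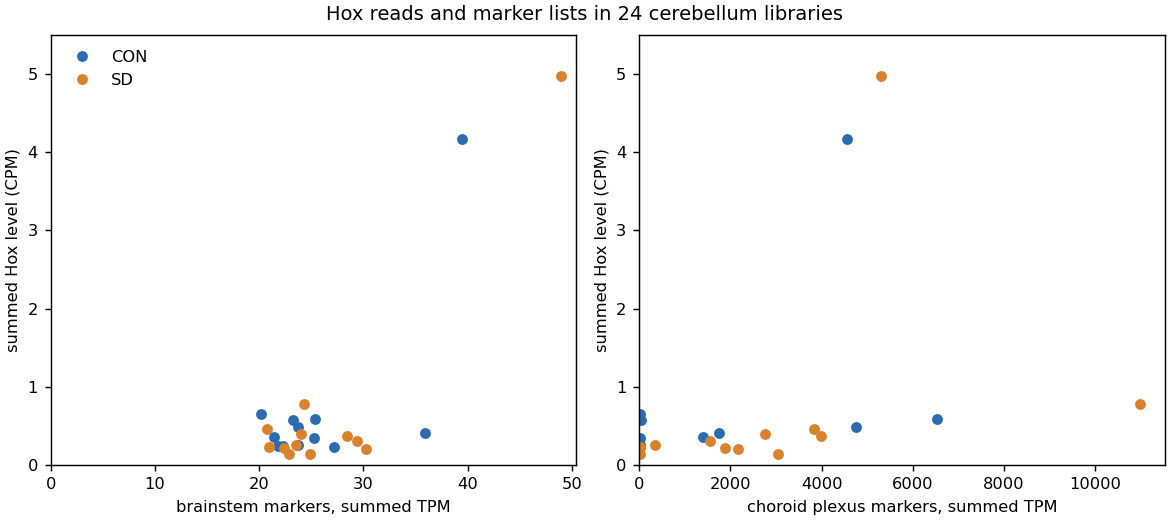
Summed Hox level (CPM) in each of the 24 cerebellum libraries against the summed level (TPM) of brainstem markers (left) and choroid plexus markers (right), CON in blue and SD in orange. The 2 libraries above 4 CPM are the 2 with the highest brainstem sum. In the right panel 2 other libraries lie further to the right than both of them, with higher choroid plexus sums.

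Hoxd1, a gene of nociceptive sensory neurons, stood higher in cerebellum than in kidney. Its mean level in control libraries was 0.2515 ± 0.149 TPM in cerebellum, 0.103 ± 0.0918 TPM in forebrain and 0.03688 ± 0.0517 TPM in kidney, and it had no count in control liver. It had 35 counts over 11 of 12 control cerebellum libraries, with 0 to 6 in each, so its signal was spread over libraries. In SD cerebellum it had 28 counts in 10 of 12 libraries. By pooled counts its kidney level was 0.202 times that of cerebellum (95% interval 0.0893 to 0.417) and 0.472 times that of forebrain (0.194 to 1.08, which includes 1). The 3 groups overlapped in range. It did not pass the filter on low counts, and without a filter it was called lower in kidney than in cerebellum (45.5% of all genes were, with the filter). The noncoding gene Haglr, which overlaps Hoxd3 on the opposite strand, also had more counts in cerebellum (126 over 12 control libraries, of which 94 in 1) than in kidney (27) or forebrain (26).

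In control forebrain, Hoxd1 had 18 counts in 8 libraries and Hoxa7 had 17 in 8, and Hoxb3 had 7, Hoxd8 6, and Hoxa3 and Hoxd4 3 each. Hoxa7 was higher in forebrain than in cerebellum by 2.32 on the log2 scale (SE 0.699, adjusted p = 0.00316), from 17 and 2 counts. In SD forebrain Hoxa7 had 7 counts, Hoxd4 had 13 and Hoxb3 had 11. Each of these members had 0 to 4 read pairs in a library. Counting error is large at such counts, and whether differences between libraries exceed it was not tested.

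Of 43 noncoding genes between the first and last Hox gene of a cluster, 26 had counts. In control libraries 24 of the 26 had their highest mean level in kidney, and Haglr and Gm14426 had it in cerebellum. In control kidney, Gm53, a long intergenic RNA between Hoxb13 and Hoxb9, had 42.15 ± 7.83 CPM, and it had 0 counts in control liver, 1 in cerebellum and 2 in forebrain. Hoxb5os had 21.1 ± 1.63 CPM in kidney, Hoxd3os1 19.21 ± 1.8, Hoxb3os 10.39 ± 0.78, Gm28793 5.711 ± 0.585 and Gm28309 4.171 ± 0.647. Hotairm1, at the anterior end of Hoxa beside Hoxa2, was among the few with counts in every organ, with 3.411 ± 0.551 CPM in kidney, 0.6508 ± 0.266 in liver, 0.05903 ± 0.0758 in cerebellum and 0.01816 ± 0.0459 in forebrain. Hoxb3os, which lies in the anterior part of Hoxb, also kept counts in liver (0.397 ± 0.15 CPM), while Hoxd3os1 had 1 count there and Gm28793 and Gm28309 had 0.

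Sleep deprivation did not move any member past the threshold. In kidney, 22 members were tested over 12 SD and 12 CON libraries with time as a factor, and edgeR called 0 of them (2.3% of 21528 genes were called). At an unadjusted p under 0.05, 4 of the 22 passed, where 13.1% of all genes did, and DESeq2 called 0. These 4 were Hoxa5, Hoxb6, Hoxd4 and Hoxa13. The median log2 difference was 0.0672 over the 22 members and 0.00856 over all genes tested, and 17 of the 22 values were positive. The share of positive values over all genes was not computed. Several members moved together across the kidney libraries, so their signs are not independent.

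Hoxa5, which is known for its role in lung development, had 2.825, 4.248 and 5.497 TPM in CON kidney (lowest, median and highest) and 3.453, 4.872 and 7.008 TPM in SD kidney. The ranges overlapped and the log2 difference was 0.31 (SE 0.114, adjusted p = 0.207). Hoxa5 passed when the SD CT4 replicate 1 library was left out (0.38, adjusted p = 0.0487). Hoxb6 had 50.27, 60.77 and 76.66 TPM in CON and 48.19, 65.41 and 87.16 TPM in SD, with a difference of 0.20 (SE 0.0762, adjusted p = 0.231). Hoxd4 differed by 0.19 (SE 0.0754, adjusted p = 0.257) and Hoxa13 by -1.71 (SE 0.756, adjusted p = 0.331). For Hoxa10 the difference was 0.02 with SE 0.0278, and for Hoxd8 it was -0.05 with SE 0.042, so the precision was high for these members. It varied among abundant members, with an SE of 0.108 for Hoxb3 and Hoxc6 and 0.149 for Hoxc4. Without a filter on low counts, Hoxb6 and Hoxa13 passed the threshold (adjusted p = 0.00637 and 0.0376), and with the filter they did not. The share of all genes called without the filter was not computed, so these calls cannot be set against it.

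**Figure D4:**
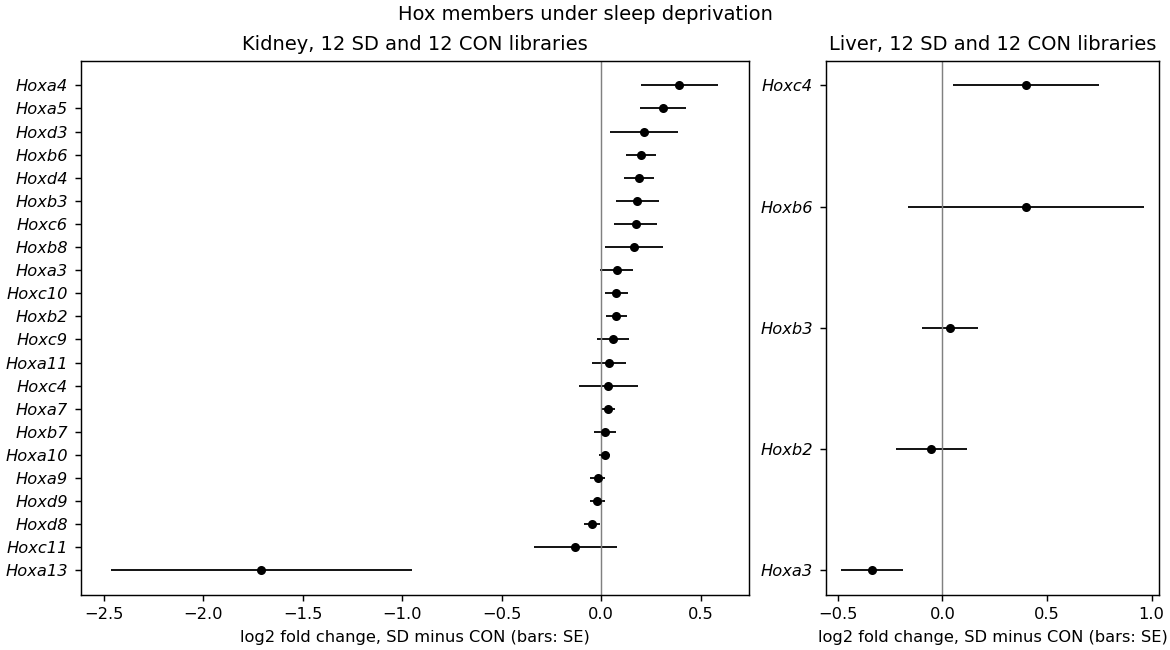
Log2 fold change of SD minus CON for the 22 Hox members tested in kidney (left) and the 5 tested in liver (right), with bars of 1 SE and the line at 0; the panels have separate horizontal scales. Kidney members lie between -0.13 and 0.39, apart from Hoxa13 at -1.71, and no member passed an adjusted p of 0.05 in either organ.

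In liver, 5 members were tested and 0 were called, where 18.2% of 19708 genes were, and 1 passed an unadjusted p under 0.05 (30.9% of all genes). That member was Hoxa3, with 0.3385, 0.5347 and 0.7768 TPM in CON and 0.2598, 0.3663 and 0.6782 TPM in SD, and a log2 difference of -0.34 (SE 0.148, adjusted p = 0.119). Scaled by library size alone, which moved the median of all liver genes from 0.00527 to -0.128, Hoxa3 passed at -0.47 (adjusted p = 0.04). Hoxb3 and Hoxb2 differed by 0.04 (SE 0.132) and -0.05 (SE 0.171). In cerebellum 5 members were tested and edgeR and DESeq2 called 0 of them, where edgeR called 0% of all 22218 genes, and 0 passed an unadjusted p under 0.05 (3.41% of all genes). Their SE were 0.7 to 0.999 on the log2 scale. In forebrain none passed the filter. The test of whether the SD effect differed between the 4 organs called 0 of 22 members (5.07% of 27324 genes), with 2 at an unadjusted p under 0.05 (18.1% of all genes) and a lowest adjusted p of 0.145.

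Hoxd8 at CT12 was looked at singly, a choice made after its values were seen. The 2 SD kidney libraries had 106.6 and 111.3 TPM and the 2 CON libraries had 159.8 and 129.2 TPM, while the other 10 SD libraries ran from 140.2 to 163 TPM. By TPM, Hoxa10 was also lowest of all in the same 2 SD libraries (45.89 and 46.74 TPM, where the others ran from 48.11 to 56.24). By CPM it was not, since its lowest value was 50.46 CPM in SD and 49.11 CPM in CON libraries. The 2 units differ in these 2 libraries. Their summed Hox level was 498.1 and 497.6 CPM but 520.1 and 506.5 TPM, where SD CT16 replicate 2 had 494.3 CPM and 570.8 TPM. The part of scaling in the low TPM values was not tested. The test over all times together, with a mean for each condition and time, called 0 of 22 members in kidney (0.725% of all genes; Hoxd8 had an adjusted p of 0.722), with 1 (Hoxc10, adjusted p = 0.333) at an unadjusted p under 0.05 (10.6% of all genes).

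No Hox member had a called 24 h cycle in the main test. JTK_CYCLE, a rank test for a 24 h cycle, was run on the TPM values of each organ and condition, and it called 0 members in the 4 series of kidney and liver. In CON kidney 22 members were tested, 2 passed an unadjusted p under 0.05 (12.9% of 20031 genes) and 0.24% of genes were called. In SD kidney 0 of 21 were called or passed unadjusted (0.0687% and 11.2% of genes). In liver 0 of 3 were called in CON and 0 of 4 in SD (1.07% and 5.45% of genes), with 0 in either at an unadjusted p under 0.05 (23.1% and 27.7% of genes), and in the brain regions none passed the filter. The ratio of the highest to the lowest time mean in CON kidney had a median of 1.28 over 19 members, from 1.05 for Hoxa10 to 1.92 for Hoxc4, and of 1.28 over 16431 genes. In SD kidney it was 1.23 over 18 members and 1.31 over 16560 genes.

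Hoxa7, a gene of the thoracic trunk, came nearest to a cycle. In CON kidney it had 35.76 and 36.92 TPM at CT8 and 34.05 and 29.1 TPM at CT24 (adjusted p = 0.282). In SD kidney it had 37.25 and 37.86 TPM at CT8 and 31.32 and 29.57 TPM at CT24 (adjusted p = 0.46). A cosine fit in edgeR called it in SD kidney (adjusted p = 0.0374, peak at 10.9 h, amplitude 0.154 on the log2 scale), where that fit called 1.94% of genes, and JTK_CYCLE on CPM called it too (adjusted p = 0.0382). In CON kidney the cosine fit did not (adjusted p = 0.576, with 4.1% of genes called). The difference between the conditions in this cycle was not tested. Hoxd9 in CON kidney, from 51.94 TPM at CT4 to 60.92 TPM at CT8, had an adjusted p of 0.335.

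**Figure D5:**
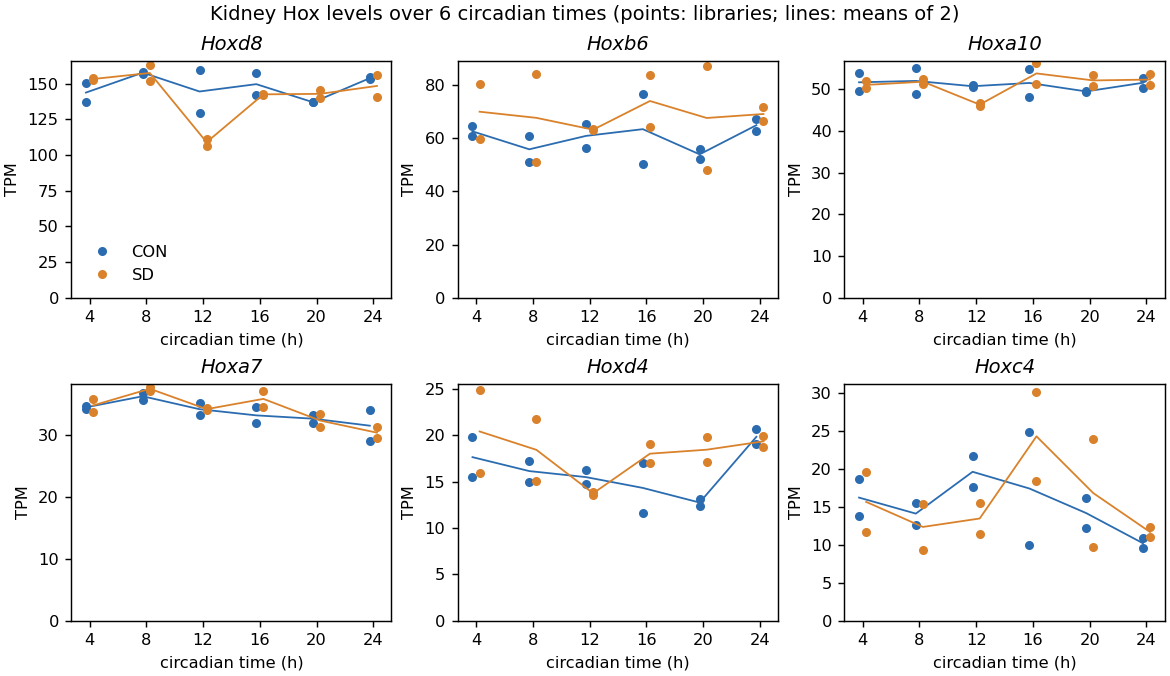
Level in TPM of 6 kidney Hox members at CT4 to CT24 (axis from 0), with a point for each library and lines through the means of 2, CON in blue and SD in orange. Hoxd8 falls to 106.6 and 111.3 TPM at CT12 in SD, Hoxa7 runs lower at CT24 than at CT8 in both conditions, and Hoxa10 is nearly level.

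Hox levels within an organ were set against marker lists in 8 relations across 12 libraries each (permutation tests, Benjamini-Hochberg over the 8). In CON kidney, the summed TPM of paralog groups 9 to 13 rose with the mean level of 7 stroma and endothelium markers (r = 0.707, adjusted p = 0.0344; rho = 0.762, adjusted p = 0.0221). Without the 2 libraries farthest from the median marker score, r was 0.647 (adjusted p = 0.117), and on CPM it was 0.447 (adjusted p = 0.236). With 9 collecting duct markers r was 0.612 (adjusted p = 0.0897; rho = 0.594) and 0.81 without 2 libraries (adjusted p = 0.0367). In SD kidney r was 0.309 with stroma (adjusted p = 0.377; rho = 0.371) and 0.449 with collecting duct (adjusted p = 0.189; rho = 0.517). So neither kidney relation held under all settings or in both conditions.

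In SD cerebellum the summed Hox level rose with brainstem markers (r = 0.901, adjusted p = 0.0344; rho = 0.594, adjusted p = 0.0907), but without the 2 farthest libraries r was 0.446 (adjusted p = 0.29), so the relation rests on those libraries. In CON cerebellum r was -0.0812 (adjusted p = 0.768; rho = -0.0909). With choroid plexus markers r was 0.5 in CON (adjusted p = 0.101; rho = 0.497) and 0.492 in SD (adjusted p = 0.189; rho = 0.769, adjusted p = 0.0221). Without the 2 farthest libraries these were 0.632 (adjusted p = 0.117) and 0.438 (adjusted p = 0.29).

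The TALE partners of Hox proteins were expressed in all 4 organs, unlike the Hox genes themselves, and all 9 were tested. Meis1 stood at 14.98 ± 2.67, 9.662 ± 2.86, 232.8 ± 20.7 and 9.682 ± 5.43 TPM in control kidney, liver, cerebellum and forebrain, and Meis2 at 13.4 ± 2.16, 3.298 ± 0.972, 1.859 ± 1.48 and 42.01 ± 13.6 TPM, in the same order. Pknox1 ran from 8.622 TPM in forebrain to 16.67 TPM in kidney. Of the 9, 6 were higher in kidney than in liver and 1 (Meis3) was lower, with 37% and 31.6% of all genes called in those directions. Between the brain regions 2 were higher in cerebellum and 6 lower, Meis1 by 4.44 (SE 0.179, adjusted p = 7.7e-26) and Meis2 by -4.74 (SE 0.278, adjusted p = 8.4e-20). Under sleep deprivation 0 of 9 were called by edgeR in kidney, cerebellum and forebrain (in forebrain 0.0303% of all genes were), and 1 of 9 was called higher in liver, where 18.2% of all genes were called.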

How the data were processed

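Total RNA was sequenced from 96 libraries. Per the study's methods, the authors trimmed reads with Trim Galore, aligned them to GRCm38 with HISAT2, kept alignments of mapping quality 60 with SAMtools and counted read pairs on the reverse strand with featureCounts. The authors deposited these per-gene values as unscaled counts. The 39 members and the gene lists were chosen with earlier results of these data known. CPM used all counts of a library, and TPM used GENCODE M21 exon lengths of features of at least 200 bases. Groups came from the titles.

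edgeR 4.0.16 quasi-likelihood tests used TMM scaling and filterByExpr, with time as a factor, and p-values were adjusted (Benjamini-Hochberg) across the whole table. Rhythms were tested with JTK_CYCLE, written out and tested on simulated data, on TPM. DESeq2, scaling by library size, no filter, a replicate block, other rhythm tests and leaving out libraries were alternatives.

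Values were given for the highest kidney member of each paralog group, members of at least 0.1 CPM in another organ, members called under SD or in rhythm tests, the 6 highest noncoding cluster genes, and up to 4 genes per list. Depth (24.8 to 58.5 M) sets a floor of 3 counts over 12 libraries, 0.00686 to 0.00893 CPM outside kidney. Some genes are not reported here.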

Additional observations from a re-analysis of the deposited data

How the results depend on the processing

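The replicate numbers were not taken to pair libraries. The correlation of the replicate 1 minus replicate 2 difference between CON and SD passed 0.1 at 3 of 6 times in kidney, 1 in liver, 3 in cerebellum and 2 in forebrain. The replicate block changed no count of members called. It turned the sign of Hoxa3 and Hoxb2 in cerebellum under SD (0.085 and 0.092, adjusted p = 0.992 and 0.993), neither of them called. Some counts of members called moved with the setting. Without a filter on low counts, 2 members were called under SD in kidney (Hoxa13 and Hoxb6). In the same setting Hoxd1 added 1 member lower in kidney than in cerebellum and 1 lower in liver than in forebrain. It also made 2 lower in liver than in cerebellum. The share of all genes called in this setting was not computed. In the SD libraries, 2 were lower in liver than in cerebellum and 0 lower in cerebellum than in forebrain. Scaling by library size called 1 liver member under SD (Hoxa3). In SD kidney, CPM called 1 rhythmic member and the edgeR cosine fit called 1, both Hoxa7.

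Among the marker relations, CPM gave r of 0.886 (SD cerebellum, brainstem), 0.447 (CON kidney, stroma) and -0.0339 (SD kidney, stroma), and leaving out the 2 farthest libraries gave 0.446, 0.647 and, for CON collecting duct, 0.81. Of the SD differences that were not called, the characteristics labels (22 CON against 2 SD libraries) turned the signs of Hoxa7 (-0.12), Hoxa11 (-0.035), Hoxd8 (0.10) and Hoxd9 (0.19) in kidney. Scaling by library size turned Hoxd9 in kidney (0.0018), Hoxb3 in liver (-0.092) and Hoxa3 in cerebellum (0.0015), and DESeq2 turned Hoxc4 in cerebellum (-0.26). The causes of these changes were not tested.

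Leaving out 1 library at a time, the members higher in cerebellum than forebrain numbered 5 to 8 and those higher in liver numbered 6 to 10 against cerebellum and 8 to 10 against forebrain. Members lower in liver than cerebellum numbered 0 to 1, and kidney members called under SD 0 to 1. The SD differences whose sign turned ranged, in cerebellum, from -0.48 to 0.42 for Hoxa3, -0.84 to 0.82 for Hoxb2, -0.93 to 0.64 for Hoxb3 and -0.59 to 0.71 for Hoxc4, in liver from -0.12 to 0.033 for Hoxb2 and -0.014 to 0.10 for Hoxb3, and in kidney from -0.0011 to 0.078 for Hoxa11 and -0.03 to 0.0012 for Hoxd9. Low counts limit all values outside kidney, and the smallest change that could be detected was not tested.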

Other observations

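Other gene lists around the Hox genes differed between organs without following the Hox pattern. Of 16 Polycomb and trithorax genes, all tested, 7 were higher and 6 lower in control kidney than in liver (37% and 31.6% of all genes), and 12 were higher and 2 lower in cerebellum than in forebrain (31.5% and 38.8%). Suz12, a core part of the Polycomb complex that methylates histone H3, stood at 50.11 ± 1.89 TPM in kidney, 33.93 ± 3.02 in liver, 76.14 ± 5.76 in cerebellum and 43.56 ± 2.28 in forebrain (SD, n = 12). Kmt2a, a trithorax-type methyltransferase, stood at 22.73 ± 1.75, 10.26 ± 2.16, 80.77 ± 10.7 and 64.75 ± 5.69 TPM. Under sleep deprivation 0 of 16 were called by edgeR in kidney, cerebellum or forebrain. In liver, where 18.2% of all genes were called, Bmi1 (log2 difference 0.19, SE 0.0487, adjusted p = 0.00697) and Cbx8 (0.25, SE 0.0794, adjusted p = 0.0313) rose and Ezh2 (-0.35, SE 0.0731, adjusted p = 0.00188) fell.

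Of 12 retinoic acid pathway genes, 6 were higher and 4 lower in kidney than in liver. Aldh1a1, which makes retinoic acid, stood at 965 ± 163 TPM in liver and 4.145 ± 1.31 in kidney, and Rdh10, which makes its precursor, at 41.4 ± 2.15 and 78.75 ± 13.5. Dhrs3, which reverses the step of Rdh10, stood at 161.5 ± 33.8 and 192.8 ± 36.2 TPM. None was called under sleep deprivation by edgeR in any organ. Of 8 relatives of the Hox genes outside the clusters or at their ends (Cdx, Gsx, Evx and Pdx genes), 3 passed the filter. Gsx1, a gene of forebrain progenitors, stood at 0.7975 ± 0.35 TPM in forebrain, Cdx4 at 0.5572 ± 0.452 in kidney, and Cdx2 was listed at 0 in all 96 libraries.

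Of the marker lists used to check the organs, 12 lists were also tested under sleep deprivation. In kidney, where 2.3% of all genes were called, the only call was Kdr, an endothelial receptor. It was lower by 0.13 on the log2 scale (SE 0.0309, adjusted p = 0.0178). In liver, where 18.2% of all genes were called, all 4 hepatocyte markers tested were higher, Cyp2e1 by 0.51 (SE 0.0681, adjusted p = 4.9e-05). Single genes of 5 lists of other organs were called there: Aqp1, Calb1, Car8 and Ppp1r1b were higher and Pax5 was lower. Hox members had 0 calls in the same fits. No marker of the podocyte, proximal tubule, collecting duct, urothelium or brainstem lists was called in any organ. No list had a call in cerebellum or forebrain. Since 0% and 0.0303% of all genes were called there, this does not set the lists apart from other genes.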
